A study of Mus musculus with 8 samples.

Results

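The Siglec genes Siglecf, Cd33, Siglece, Siglec1, Siglecg and Cd22 were followed through the open chromatin of alveolar macrophages (AMs) with and without the nuclear receptors RXRα and RXRβ. Every ATAC-seq peak that overlapped 1 of the 6 gene bodies, or the 20 kb on either side of it, was taken from the 8 peak lists, and peaks that shared a base were merged across libraries. This gave 54 regions, out of 82424 merged regions in the genome. Coordinates are those of mm10, and the gene models are those of GENCODE M21.

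Siglecs are cell surface lectins that bind sialic acid on glycans, which helps immune cells tell self from foreign surfaces. Most CD33-related members carry tyrosine motifs in the cytoplasmic tail that, once phosphorylated, recruit the phosphatases SHP-1 and SHP-2 and damp activating signals. Sialoadhesin, the product of Siglec1, has no such motif and acts in adhesion and capture of sialylated particles. Siglec-F is a defining surface protein of the mature AM, the resident macrophage of the air space, and Siglec-G and CD22 are best known as inhibitory receptors of B cells.

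ATAC-seq, in which Tn5 transposase cuts accessible DNA, was performed on AMs that had been washed from the airspaces of adult mice and sorted. All mice carried floxed Rxra and Rxrb alleles (Rxrabfl/fl) on both chromosomes. The 4 KO libraries (replicates 1_2, 1_3, 2 and 3) came from CD11cCre+ Rxrabfl/fl mice, in which the Cd11c promoter drives Cre in AMs and in other CD11c-expressing cells, and the 4 WT libraries (replicates 1_2, 1_3, 3 and 4) came from CD11cCre- Rxrabfl/fl mice. WT therefore means RXR-sufficient cells with floxed alleles. The series calls the libraries individual biological replicates, but the labels do not say whether replicates 1_2 and 1_3 shared an animal, so p-values measure the spread between these libraries. The study defined mature AMs as CD11b-negative and SiglecF-positive, so Siglec-F protein itself took part in choosing the cells.

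Signal is given as summit tags, the number of reads extended to 200 bp that cover the highest point of a peak, and scaled tags are these divided by a factor for each library. The lists held 60363 to 65009 peaks in KO and 61240 to 72484 in WT. WT replicate 1_3 had the longest list and the highest background, 2.26 tags per 200 bp against 1.12 to 1.86 in KO and 1.42 to 1.60 in the other WT libraries. Rxra held 16 regions, of which 12 had a peak in all 8 libraries, 1 had a peak in every WT and no KO library and 0 the reverse, and the 2 regions of Rxrb did not separate the genotypes. Start sites of 8 of 10 AM marker genes had a peak in all 8 libraries, whereas all 5 T cell and all 4 eosinophil marker genes had no peak there in any library. Of the genes of B cells, the type in which Siglecg and Cd22 are best known, Cd79a, Cd79b, Ms4a1 and Blk had no peak at the start in any library, Pax5 had 8.20 scaled tags in 1 WT library, and Ebf1 had 24.9 in all 8 libraries. The neutrophil gene S100a8 was open in all 8 libraries at 165 scaled tags, while S100a9, Ly6g, Mpo and Elane had no peak. Start sites were also open in all 8 libraries for 3 of 4 dendritic cell, 3 of 3 monocyte and 3 of 4 epithelial genes, at 17.4 to 97.3 scaled tags. Cdh1, in the epithelial list at 29.2 scaled tags, is also an AM-core gene in the study. Of the marker genes outside the AM list, 11 were called in every library and tested, and by limma 0 of them passed an adjusted p under 0.05 and 2 an unadjusted p under 0.05. Of all regions tested, 7.03% were lower and 5.81% higher in KO at the adjusted level, and 12.1% and 14.1% at the unadjusted level. Whether these genes depart from those shares was not tested. Of the 8 AM markers tested by limma, Itgax was higher in KO (log2 0.55, adjusted p = 3.83e-05) and Fabp4 lower (log2 -0.70, adjusted p = 0.000224). Itgax is the Cd11c gene, whose promoter drives Cre in the KO mice only. Whether reads from the Cre transgene add to its tags was not tested. How far other cell types contribute to the Siglec signal was not tested.

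Sequences of 8 Siglec elements are shown first, because the results below turn on them. All are written 5′ to 3′ in lower case. The first pair are RefSeq promoters (GRCm38.p6) on the strand of the gene, the 250 bases before the start of Siglecf and before the internal start of Cd33 that RefSeq lists. Capitals mark the longest run of letters that they share.
Siglecf promoter, chr7:43351091-43351340, plus strand: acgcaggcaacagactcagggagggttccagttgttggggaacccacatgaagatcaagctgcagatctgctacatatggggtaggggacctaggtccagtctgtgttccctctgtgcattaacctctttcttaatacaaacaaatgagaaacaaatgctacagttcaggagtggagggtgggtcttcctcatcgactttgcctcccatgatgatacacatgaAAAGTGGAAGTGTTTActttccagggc
Cd33 promoter, chr7:43533172-43533421, minus strand: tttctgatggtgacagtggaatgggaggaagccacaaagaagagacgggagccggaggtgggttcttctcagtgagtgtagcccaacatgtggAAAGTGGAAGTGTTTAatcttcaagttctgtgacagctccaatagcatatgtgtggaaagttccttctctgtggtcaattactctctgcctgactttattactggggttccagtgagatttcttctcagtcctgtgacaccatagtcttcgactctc
Both promoters hold the 16 bases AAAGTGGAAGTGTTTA, at bases 27 to 12 before the start in Siglecf and at bases 157 to 142 before it in Cd33. Of 32851 mouse promoters in the table, 2 held this run on either strand, and these were the promoters of Siglecf and Cd33. Between the promoters of other members, and of these with the others, the longest shared run was 6 to 10 bases. The run was noticed in the sequences and not searched for in advance. RefSeq entries were found for 5 of the 6 members, and Siglec1 had none in the table. CpG dinucleotides were counted over the whole RefSeq promoter entries, which run past the start and so are longer than the 250 bases printed. The entries of Siglecf, Siglecg, Cd33, Siglece and Cd22 held 2, 1, 4, 1 and 4, against a median of 7 over all promoters.

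The other 6 sequences are the 201 bases centred on a summit, from the plus strand of GRCm38. The first is the strongest region of Siglecf, in an intron, with the letters TTNCGNAA of a C/EBP site in capitals.
Siglecf +1.98 kb, chr7:43353218-43353418: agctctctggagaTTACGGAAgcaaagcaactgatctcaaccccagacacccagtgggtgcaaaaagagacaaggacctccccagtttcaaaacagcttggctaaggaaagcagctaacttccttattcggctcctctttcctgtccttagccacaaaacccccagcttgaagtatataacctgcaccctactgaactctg
The next 3 are the Siglec regions that hold a DR1, the element to which RXR heterodimers with PPARγ bind, here taken as AGGTCA repeated after 1 base with at most 2 mismatches on either strand. Capitals mark the match, which had 2 mismatches in each.
Siglec1 -3.05 kb, chr2:131089713-131089913: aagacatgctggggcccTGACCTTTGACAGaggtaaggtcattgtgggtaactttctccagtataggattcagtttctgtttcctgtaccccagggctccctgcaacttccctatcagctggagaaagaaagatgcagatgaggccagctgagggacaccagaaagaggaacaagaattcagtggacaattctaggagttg
Siglecg +11.9 kb, chr7:43420046-43420246: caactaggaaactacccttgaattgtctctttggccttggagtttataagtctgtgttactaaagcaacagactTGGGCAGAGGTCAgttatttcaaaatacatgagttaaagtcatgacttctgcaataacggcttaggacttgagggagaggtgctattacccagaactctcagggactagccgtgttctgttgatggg
Cd33 +5.69 kb, chr7:43538641-43538841: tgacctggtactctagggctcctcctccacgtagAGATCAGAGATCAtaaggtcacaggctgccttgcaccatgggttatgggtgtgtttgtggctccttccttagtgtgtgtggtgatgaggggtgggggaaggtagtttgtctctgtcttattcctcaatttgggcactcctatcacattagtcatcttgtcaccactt
The last 2 are the regions that passed the test of summit tags between the genotypes, with the RUNX letters TGTGGTT in capitals where present. Both calls were lost under background scaling and in other alternatives given below.
Siglece +23.9 kb, chr7:43636210-43636410: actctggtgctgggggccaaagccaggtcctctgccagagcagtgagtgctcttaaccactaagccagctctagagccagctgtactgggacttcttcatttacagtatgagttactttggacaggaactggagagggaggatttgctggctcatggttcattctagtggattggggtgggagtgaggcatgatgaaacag
Cd33 -19.1 kb, chr7:43563421-43563621: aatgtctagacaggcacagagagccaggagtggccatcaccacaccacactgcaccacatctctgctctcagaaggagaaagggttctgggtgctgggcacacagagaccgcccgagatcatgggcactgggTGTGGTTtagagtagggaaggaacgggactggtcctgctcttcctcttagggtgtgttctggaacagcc
Positions are given in kb from the 5′ end of the gene, counted along the gene, and a minus sign means upstream.

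Openness differed among the 6 genes, from Cd33, with 9 of 10 regions called in every library, to Cd22, with 1 of 4. A peak was present in all 8 libraries at 38 of the 54 regions (70.4%), against 57.6% of all regions. Of the 54, 28 lay between genes, 14 in introns, 7 in UTRs and 5 in coding exons, of a Siglec or of a neighbouring gene. The number with a peak was 40, 45, 41 and 44 in KO and 45, 50, 45 and 46 in WT, in the order of replicates given above, and the 50 belong to WT replicate 1_3, the library with the longest list. A single region (1 of 54, 1.85%, against 0.723% of all regions) was present in all WT and no KO libraries, and 0 were present in all KO and no WT libraries (0.251% of all regions). With the rule relaxed to at most 1 library of the other genotype, or to 3 against 0, there were 2 WT-leaning regions (3.70%, against 3.05% of all regions) and 0 KO-leaning ones (1.05% of all regions). A library without a peak is not one without reads, since the weakest peak listed in any library held 6 to 9 tags.

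**Figure D1:**
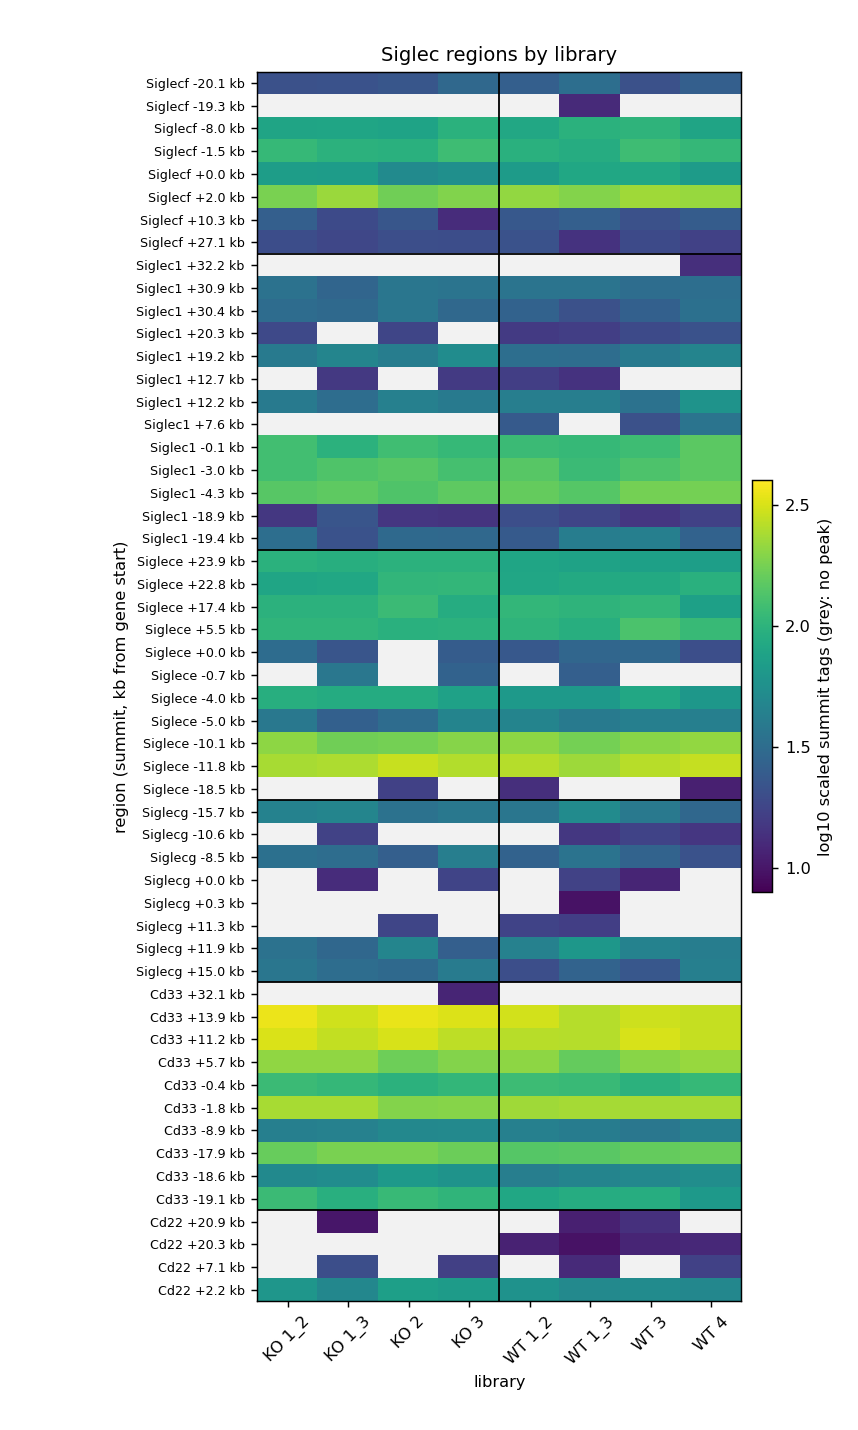
Scaled summit tags (log10 colour scale) of the 54 Siglec regions (rows, by distance from the gene start in kb) in the 4 KO and 4 WT libraries, with grey where no peak was listed. In the rows of Siglecf and Cd33, 7 of 8 and 9 of 10 regions have a peak in every library, and in those of Siglecg and Cd22 4 of 8 and 1 of 4 do.

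At the 38 regions called in every library, summit tags were compared between genotypes with limma fitted to the 47499 regions of the genome called in every library. Over the genome 7.03% of regions were lower and 5.81% higher in KO at an adjusted p under 0.05 (3337 and 2759 regions, or 1988 and 575 when libraries were scaled by their background tags). Of the 38 Siglec regions, 0 were lower and 2 were higher in KO by the same test. Neither of the 2 lay in a Siglec gene, since both were in introns of neighbouring genes. At an unadjusted p under 0.05, 2 Siglec regions were lower and 4 higher, where over the genome 12.1% were lower and 14.1% higher. The estimate was below 0 at 18 and above 0 at 20 regions, with a range of -0.51 to 0.37 and a median of 0.0025, against 0.043 over all regions tested. In bulk material, fewer open cells and less opening in each cell cannot be told apart.

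**Figure D2:**
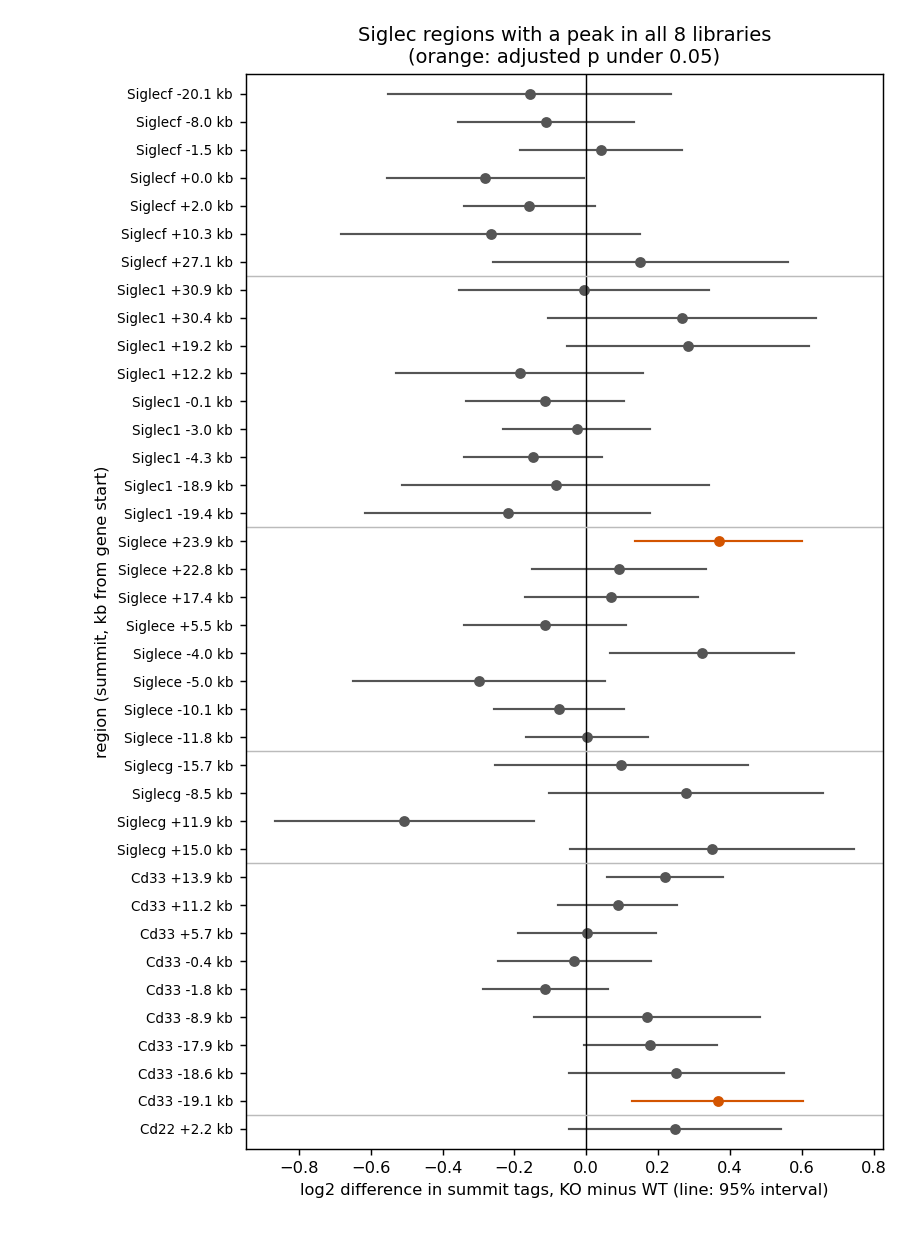
Log2 difference in summit tags, KO minus WT, with its 95% interval (limma) for the 38 Siglec regions called in every library. The 2 regions in orange, Siglece +23.9 kb and Cd33 -19.1 kb, passed the adjusted p threshold, and the other 36 intervals are in grey.

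Siglecf (ENSMUSG00000039013.16, chr7:43351341-43359531, plus strand) encodes the inhibitory receptor Siglec-F of AMs and eosinophils. It had 8 regions, 7 of them in all 8 libraries, and none of the 7 passed the test. The start-site region (chr7:43351163-43351542, summit in the 5′ UTR 11 bp past the start) held 71, 68, 46 and 47 tags in KO and 70, 110, 90 and 60 in WT. KO replicates 2 and 3 were the lowest, and the genotypes overlapped after scaling, at 51.8 to 70.7 in KO and 67.6 to 82.4 in WT. Scaled means were 61.7 ± 9.35 and 74.9 ± 8.38 for KO and WT (SD, n = 4). The log2 difference was -0.28 (SE 0.14, 95% interval -0.56 to -0.0069), with an unadjusted p from limma of 0.0447 and an adjusted p of 0.177, so the region did not pass.

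The strongest Siglecf region lay in an intron at +1.98 kb (chr7:43353114-43353570), the one with the C/EBP letters. It held 181, 220, 151 and 160 tags in KO and 218, 259, 248 and 193 in WT, and was stronger than 90.2% of peaks on average over libraries. The scaled means were 191 ± 22.6 in KO and 212 ± 14.3 in WT (SD, n = 4), and KO replicate 1_3, at 222, exceeded all WT libraries but replicate 3, at 227. The log2 difference was -0.16 (95% interval -0.34 to 0.024, limma adjusted p = 0.267). Upstream, the regions at -1.47 kb and -7.99 kb had differences of 0.04 (95% interval -0.19 to 0.27) and -0.11 (-0.36 to 0.13). Estimates were below 0 at 5 of the 7 Siglecf regions and above 0 at 2, with a median of -0.16. A p that misses the threshold does not show that the genotypes were alike, so each difference is given with its interval.

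Cd33 (ENSMUSG00000004609.11, chr7:43524216-43544428, minus strand) encodes CD33, or Siglec-3, a myeloid receptor for which the CD33-related group is named. It had the highest summit tags of the 6 genes, and 9 of its 10 regions were called in all 8 libraries. The region with most tags was intronic at +13.9 kb (chr7:43530220-43530877), and it held 357, 296, 308 and 273 tags in KO and 315, 344, 323 and 250 in WT. After scaling, KO lay at 299 to 356 and WT at 256 to 305, so that only KO replicate 1_3 reached into the WT range. The scaled means were 331 ± 25.4 and 285 ± 21.1 (SD, n = 4), a log2 difference of 0.22 (SE 0.081, 95% interval 0.057 to 0.38, limma unadjusted p = 0.00916 and adjusted p = 0.0635), which missed the threshold. Of 16 alternatives it passed in 1, without KO replicate 1_3 (adjusted p = 0.0374). The estimate ran from 0.145 to 0.267 over the 16, and the adjusted p was 0.784 under background scaling.

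Cd33 has more than 1 annotated start. The region at the internal start (chr7:43532991-43533646), whose promoter is printed above, held 318, 276, 277 and 229 tags in KO and 271, 343, 341 and 249 in WT. The difference was 0.09 (95% interval -0.078 to 0.25, limma adjusted p = 0.533), with scaled means of 295 ± 22.9 and 278 ± 25.3. The region at the far start (chr7:43544273-43544976) was weaker, with 115, 106, 87 and 90 tags in KO and 121, 151, 107 and 97 in WT, a difference of -0.03 (95% interval -0.25 to 0.18, limma adjusted p = 0.881). The region at +5.69 kb with the DR1 letters held 210, 206, 148 and 162 tags in KO and 211, 213, 216 and 192 in WT, and its difference was 0.00 (95% interval -0.19 to 0.19).

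The Cd33 window also held a region that passed the test, at -19.1 kb (chr7:43563241-43563707), in an intron of Zfp658 and within 1 kb of a start of that zinc finger gene. It held 115, 93, 99 and 87 tags in KO and 85, 121, 99 and 59 in WT. After scaling the genotypes did not overlap, with KO at 94.0 to 115 and WT at 66.5 to 90.7. The log2 difference was 0.37 (SE 0.12, 95% interval 0.13 to 0.60, limma adjusted p = 0.0315). The call was lost under background scaling (0.31, adjusted p = 0.419), without the trend in the prior variance (adjusted p = 0.0902), with a replicate block over the 6 libraries that share a replicate name (0.24, adjusted p = 0.189), in the same 6 libraries without it (adjusted p = 0.218) and when KO replicate 1_2, 2 or 3 or WT replicate 1_2 or 4 was left out (adjusted p of 0.0557 to 0.12). The adjacent Zfp658 regions at -17.9 kb and -18.6 kb had differences of 0.18 and 0.25 and did not pass. Estimates were above 0 at 7 of the 9 regions tested in the Cd33 window, with a median of 0.17. The Zfp658 regions at -17.9, -18.6 and -19.1 kb were among the 7. The remaining regions, in Cd33 or nearer to it, had estimates of 0.22, 0.09, 0.00, -0.03, -0.11 and 0.17.

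Siglece (ENSMUSG00000030474.9, chr7:43651070-43660161, minus strand) encodes the inhibitory receptor Siglec-E of neutrophils and macrophages. Its start was weakly open beside strong regions around it. The start-site region (chr7:43659917-43660295) held 24, 39, 32 and 18 tags in WT. In KO it held 32 tags in replicate 1_2, 22 in 1_3 and 21 in 3 and was not called in replicate 2, so it was not tested. A second region at -0.70 kb (chr7:43660764-43661017), with the PU.1 letters GAGGAAGT, had a peak in KO replicates 1_3 and 3 (37 and 23 tags) and in WT replicate 1_3 (35 tags). Inside the gene, the intronic region at +5.45 kb (chr7:43654471-43655102) held 103, 102, 84 and 83 tags in KO and 105, 124, 143 and 98 in WT, a difference of -0.11 (95% interval -0.34 to 0.11).

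The strongest region of the Siglece window was not at Siglece. It lay at -11.8 kb (chr7:43671599-43672162), at the starts of the tRNA thiolation gene Ctu1 and of Gm36546, with 240, 243, 256 and 214 tags in KO and 266, 303, 284 and 251 in WT and a difference of 0.00 (95% interval -0.17 to 0.17, limma adjusted p = 0.99). The region that passed the test lay at +23.9 kb, beyond the 3′ end of Siglece in an intron of Ceacam18 (chr7:43636141-43636588), a gene of the CEACAM adhesion family. It held 97, 92, 87 and 83 tags in KO and 82, 101, 80 and 63 in WT, which after scaling became 92.9 to 98.4 in KO and 71.0 to 79.3 in WT, without overlap. The log2 difference was 0.37 (SE 0.12, 95% interval 0.14 to 0.60, limma adjusted p = 0.026). The call was lost under background scaling (0.31, adjusted p = 0.431), with a replicate block (0.34, adjusted p = 0.0645), in the same 6 libraries without it (adjusted p = 0.081) and when KO replicate 1_2, 2 or 3 or WT replicate 3 was left out (adjusted p of 0.057 to 0.0637). Its Ceacam18 neighbours at +22.8 kb and +17.4 kb had differences of 0.09 (95% interval -0.15 to 0.33) and 0.07 (-0.17 to 0.31).

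**Figure D3:**
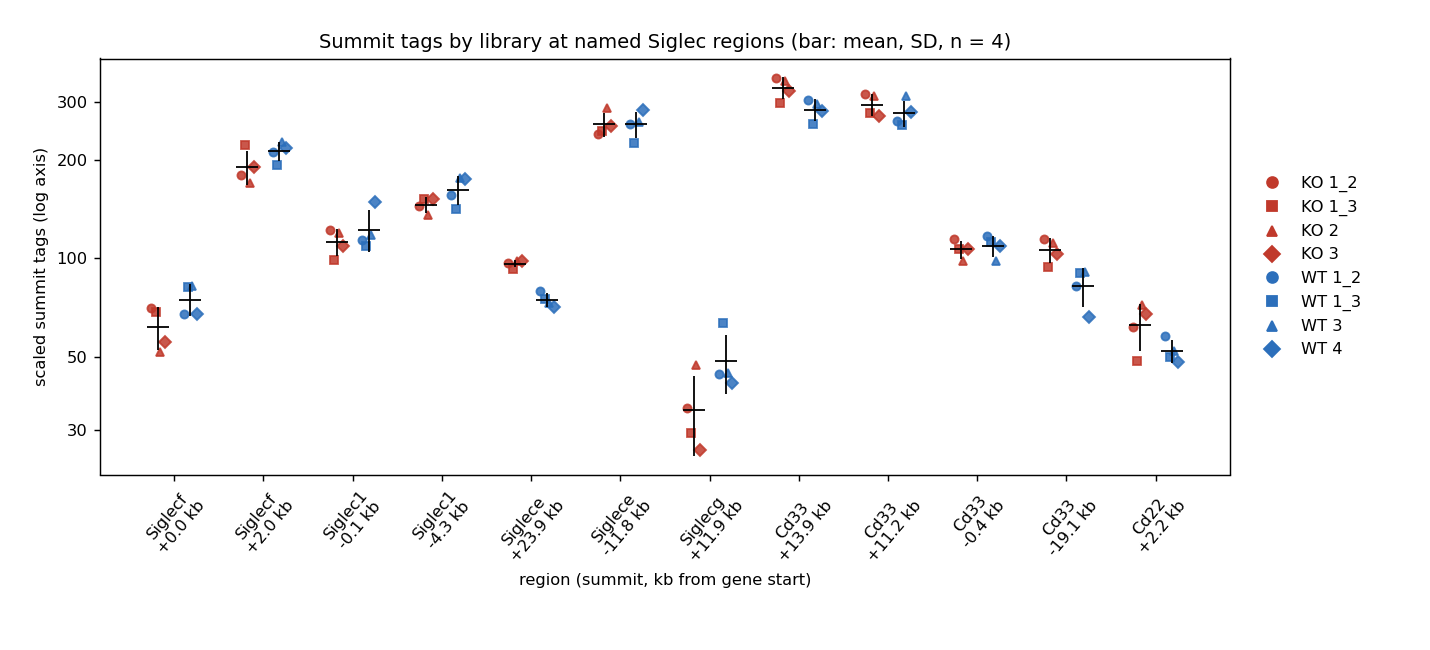
Scaled summit tags on a log axis by library at the 12 named regions called in every library, with KO in red and WT in blue, 1 symbol for each replicate and bars for the mean and SD (n = 4). KO and WT points are apart at Siglece +23.9 kb and Cd33 -19.1 kb and overlap at the Siglecf, Siglec1 and Cd33 start sites.

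Siglec1 (ENSMUSG00000027322.11, chr2:131069220-131086765, minus strand) encodes sialoadhesin, CD169, a marker of tissue macrophages. It had the largest number of regions, 13, with 9 in all 8 libraries, and the strongest 3 lay at and upstream of the start. The start-site region (chr2:131086668-131087058) held 123, 98, 106 and 92 tags in KO and 118, 146, 129 and 132 in WT. Scaled means were 113 ± 10.7 and 122 ± 18 (SD, n = 4), and the difference was -0.11 (95% interval -0.33 to 0.10, limma adjusted p = 0.538). The region at -4.27 kb (chr2:131090839-131091263) was the strongest, with 145, 150, 120 and 128 tags in KO and 162, 190, 192 and 155 in WT. Its scaled means were 146 ± 7.79 and 162 ± 16.3 and its difference was -0.15 (95% interval -0.34 to 0.043, limma adjusted p = 0.33).

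Between these lay the region at -3.05 kb with a DR1 (chr2:131089633-131090050). It held 123, 135, 128 and 106 tags in KO and 150, 153, 145 and 132 in WT, and after scaling the means were 132 ± 10 and 135 ± 15.7, a difference of -0.03 (95% interval -0.23 to 0.18). A coding exon of Siglec1 at +7.61 kb (chr2:131078975-131079297) was WT-leaning, with 25, 23 and 32 tags in WT replicates 1_2, 3 and 4 and no peak in any KO library. It also had no peak in WT replicate 1_3, the library with the longest list. Estimates were below 0 at 7 of the 9 Siglec1 regions tested, with a median of -0.085.

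Siglecg (ENSMUSG00000030468.12, chr7:43408204-43418358, plus strand) encodes Siglec-G, an inhibitory receptor that limits B cell receptor signalling. Its start was among the weakest. The start-site region (chr7:43408053-43408363) had a peak in KO replicates 1_3 and 3 (13 and 15 tags) and in WT replicates 1_3 and 3 (23 and 13 tags), and a second at +0.28 kb only in WT replicate 1_3 (13 tags). No region of Siglecg with a peak in all 8 libraries lay inside the gene. The highest mean over all libraries, 41.5 scaled tags, was past its 3′ end at +11.9 kb (chr7:43419937-43420351), between genes, in the region that holds a DR1. The region at -15.7 kb was close to it, at 40.2, and was the higher of the pair in KO (41.3 against 34.4), so the 2 were not ranked. The +11.9 kb region held 35, 29, 42 and 22 tags in KO and 46, 85, 49 and 37 in WT.

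This +11.9 kb region had the largest estimate below 0 of the 38 Siglec regions. After scaling KO lay at 26.1 to 47.3 and WT at 41.7 to 63.3, with KO replicate 2 inside the WT range. The means were 34.4 ± 9.36 and 48.6 ± 9.93 (SD, n = 4), a log2 difference of -0.51 (SE 0.18, 95% interval -0.87 to -0.15, limma unadjusted p = 0.0069 and adjusted p = 0.0524), just outside the threshold. Leaving out KO replicate 2 (-0.67, adjusted p = 0.0135) or WT replicate 4 (-0.57, adjusted p = 0.0344) brought it inside, and leaving out WT replicate 1_3 moved it to -0.38 (adjusted p = 0.229). With the replicate block it was -0.74 (adjusted p = 0.00347), and the same 6 libraries without a block gave the same estimate (adjusted p = 0.0074). With replicates 1_2 and 1_3 as 1 sample it was -0.435 (adjusted p = 0.161). The region passed in 5 of 16 alternatives. The neighbour at +15.0 kb, at 37, 32, 27 and 34 tags in KO and 21, 37, 25 and 38 in WT, had a difference of 0.35 (95% interval -0.044 to 0.74). By limma it passed under the block (0.63, adjusted p = 0.028), in the same 6 libraries without a block (0.63, adjusted p = 0.041) and without WT replicate 4 (0.57, adjusted p = 0.0449).

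Cd22 (ENSMUSG00000030577.14, chr7:30865402-30880342, minus strand) encodes CD22, or Siglec-2, the inhibitory receptor of B cells. It had the fewest regions, 4, none of them within 1 kb of the 5′ end of the gene, and 1 was in all 8 libraries. That region lay at +2.19 kb next to an internal start (chr7:30877831-30878388, summit in a UTR) and held 62, 48, 64 and 57 tags in KO and 60, 67, 57 and 43 in WT. Scaled means were 62.5 ± 10.3 and 52.2 ± 4.21 (SD, n = 4), and the difference was 0.25 (95% interval -0.047 to 0.54, limma adjusted p = 0.285). The WT-only region of the family lay in this window, at +20.3 kb in a UTR of the free fatty acid receptor gene Ffar1 (chr7:30859973-30860189). It held 12, 13, 13 and 11 tags in WT, close to the weakest peaks listed in these libraries, at 7 to 9 tags. When peaks needed a −log10 q of at least 5, the number of WT-only Siglec regions was 0. A coding exon of Cd22 at +7.10 kb had a peak in 2 KO libraries (20 and 14 tags) and 2 WT libraries (17 and 15 tags).

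**Figure D4:**
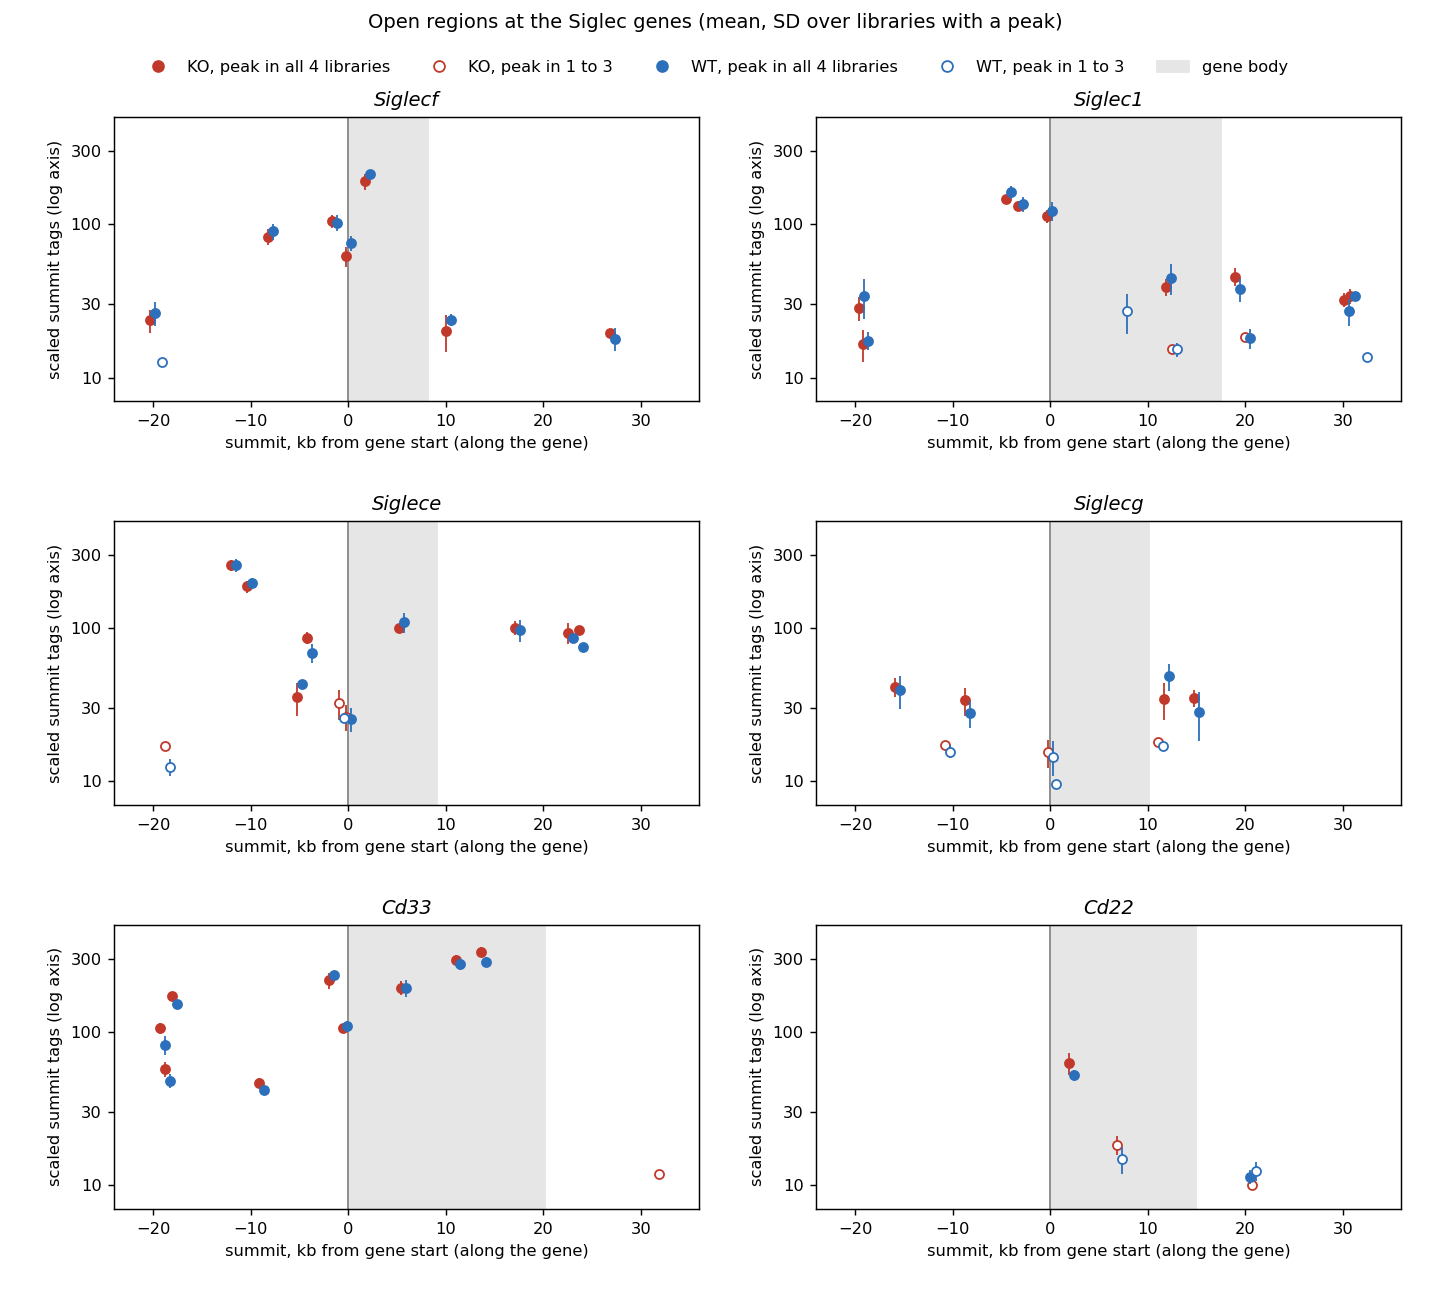
Mean scaled summit tags (log axis, bars SD over libraries with a peak) of every Siglec region against the distance of its summit from the gene start in kb, KO in red and WT in blue (drawn side by side), open symbols where fewer than 4 libraries of a genotype had a peak, and the gene body in grey. Siglec1 has its 3 strongest regions at and upstream of the start, Cd33 reaches 331 scaled tags in KO inside the gene, and Siglecg has no region with filled symbols for both genotypes inside the gene.

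With the start-site region called in most libraries taken for each gene, and the strongest of these where several were, the order of openness was Cd33 (286 scaled tags over all libraries, at its internal start), Siglec1 (117), Siglecf (68.3), Cd22 (57.3, next to an internal start), Siglece (25.8, over 7 libraries) and Siglecg (15.0, over 4 libraries). Siglecf and Cd22, at 51.8 to 82.4 and 48.5 to 72.1 scaled tags in single libraries, overlapped and were not separated, and Siglec1 (99.0 to 149) and the internal Cd33 start (256 to 317) lay above them and apart from each other. The far Cd33 start, at 98.0 to 117, overlapped Siglec1. The Siglec genes Mag and Siglech, the latter of plasmacytoid dendritic cells, had no peak at the start in any library.

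Motif letters were searched within 100 bases of each summit on both strands and are a description of the sequence. PU.1 letters (GAGGAAGT) were present in 5 of the 54 Siglec regions (9.26%, against 10.5% of all regions). C/EBP letters (TTNCGNAA) were present in 2 (3.70% against 2.17%), AP-1 letters (TGANTCA) in 4 (7.41% against 11.7%) and RUNX letters (TGTGGTT) in 8 (14.8% against 8.87%). STAT5 letters (TTCNNNGAA) were found in 5 (9.26% against 6.0%), E-box letters (CACGTG) in 2 (3.70% against 5.22%) and the DR1 in 3 (5.56% against 4.14%). None of the promoters of the 5 matched members held any of these. All 3 DR1 regions were open in all 8 libraries, and their estimates were -0.03 at Siglec1, -0.51 at Siglecg and 0.00 at Cd33. Base composition was that of other regions, with a median GC of 50.25% in both sets, and the median width was 410 bp against 393 bp.

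Genes that act with Siglecs or make their ligands were open in both genotypes. Of 22 such genes, 20 had a start-site region in all 8 libraries. Of the 20, 0 passed as lower and 2 as higher in KO, beside 7.03% and 5.81% of all regions tested. The median difference was 0.145, against 0.043 over all regions tested. No share or median over the start sites of all genes was worked out, so these genes are not set apart from others. St3gal3, a sialyltransferase that builds sialylated glycans, was higher in KO (log2 0.40, limma adjusted p = 0.000791), a call lost under background scaling (0.34, adjusted p = 0.246). Hcst, which encodes the signalling adaptor DAP10, was higher in KO (log2 0.27, limma adjusted p = 0.0449). The call was lost under background scaling (0.22, adjusted p = 0.635), under quantile normalisation (adjusted p = 0.0819) and without the trend in the prior variance (adjusted p = 0.108). It was also lost with −log10 q of at least 5 (adjusted p = 0.0556) and with replicates 1_2 and 1_3 as 1 sample (adjusted p = 0.135). The same held when any library other than WT replicate 4 was left out (adjusted p of 0.0542 to 0.146). The inhibitory phosphatases Ptpn6 (SHP-1) and Ptpn11 (SHP-2) had differences of 0.13 and 0.09 and did not pass, nor did the activating adaptor Tyrobp (0.19) or the kinases Syk (0.18) and Lyn (-0.04). Of the remaining 2 genes, Cmah, which encodes the hydroxylase that makes Neu5Gc, had a peak in 1 WT library, and St3gal5 in 3 KO and 3 WT libraries.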

How the data were processed

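ATAC-seq was measured in 8 libraries. Per the study's methods, the authors used Cutadapt for trimming, Bowtie2 for alignment to mm10 and Picard and samtools for filtering, and called peaks in each library separately with MACS3 (tags extended to 200 bp, q at 0.05). Each deposited list gives the fold enrichment at the summit (a ratio), a score, and p-values and q-values as −log10. The authors tested read counts with edgeR. That fit was not made here, as the lists hold no read counts. Whole summit tags were worked back from fold enrichment and −log10 p under the Poisson model of the caller, within a relative error of 1e-05 for 100% of peaks in each library.

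Peaks sharing at least 1 base were merged, and a region took the strongest peak of each library. limma 3.58.1 (R 4.3.3) with a trended prior variance was fitted to log2(tags + 0.5), centred on each library's median, with Benjamini-Hochberg adjustment over all regions called in every library. It was tested on simulated data. This scale understates the change of weak regions. For each gene the start-site region (within 1 kb), the strongest region and all genotype-specific, genotype-leaning or passing regions were named, and other regions were named after their values were seen. Members and gene lists were chosen with earlier results of these data known. A marker gene of the B cell list is not reported here. Alternatives covered the window, merging, q, list length, scaling, pseudocount, prior variance, a replicate block and leaving out each library. Replicate names were not taken as pairs, since the labels do not give them as such. After removal of genotype means, same-named libraries correlated at 0.0555, 0.116 and 0.0368, and differently named ones at -0.0673 to 0.0322. Python 3.11.15, numpy 2.4.6 and pandas 2.3.3 were used.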

Additional observations from a re-analysis of the deposited data

Results flagged for a closer look

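At the Siglecg region at +11.9 kb, WT replicate 1_3 stood apart from the other WT libraries, at 5.99 log2 scaled summit tags against 5.40 to 5.50. Its gap to the nearest library was 0.831 of the range of the 4 libraries, just above the 95% limit for such a gap. Chance sets apart about 1 in 20 such sets, and 26 sets were looked at, of which 1 was set apart. Without this library the difference at the region was -0.38 (limma adjusted p = 0.229).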

How the results depend on the processing

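The number of Siglec regions was 82 with 50 kb on each side, and 25 regions were in all 8 libraries with 10 kb. WT-only regions numbered 0 with −log10 q of at least 5 or with lists of equal length, 2 with replicates 1_2 and 1_3 as 1 sample or with the relaxed rule, and 1 to 2 when 1 library was left out (2 without WT replicate 1_3). Siglec regions higher in KO by limma, 2 as reported, numbered 0 under background scaling, 1 without the trend, 1 under the replicate block and 1 in the same 6 libraries without a block, and 0 to 3 with 1 library left out (0 without KO replicate 1_2, 2 or 3, 1 without WT replicate 1_2 and 3 without KO replicate 1_3). The region counted under the block and in the same 6 libraries was the Siglecg region at +15.0 kb, so neither reported call passed there. Regions lower in KO, 0 as reported, numbered 1 with −log10 q of at least 5, 1 under the replicate block and 1 in the same 6 libraries, and 0 to 1 with 1 library left out (1 without KO replicate 2 or WT replicate 4). In each of these it was the Siglecg region at +11.9 kb. Over the genome the replicate block gave 3296 lower and 3608 higher regions, and fits without the trend 2582 and 1662. Each KO library with a shared replicate name correlated best with the WT library of that name, which is a hint from the data and not from the design. The estimate at the Ctu1 start (Siglece -11.8 kb) changed sign to -0.053 under background scaling, -0.057 under quantile normalisation, -0.0067 with a pseudocount of 5 tags, -0.0055 with −log10 q of at least 5 and -0.0064 under the replicate block and in the same 6 libraries, and ran from -0.058 to 0.051 with 1 library left out. That at the far Cd33 start changed sign to 0.0081 under the replicate block and in the same 6 libraries, and ran from -0.084 to 0.0061 with 1 library left out. The cause of these changes was not tested. Of the other estimates at named regions, 158 kept direction and side of the threshold, 16 no longer passed and 6 passed. The depth behind the lists is unknown beyond the tags and background, and weak regions rest on few tags.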
